A study of Mus musculus with 8 samples.

Results

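The immediate early genes Fos, Fosb, Jun, Junb, Jund, Egr1, Atf3, Ier2, Ier3 and Dusp1 were followed in purified mouse Paneth cells. These 10 genes were taken by symbol from the 55414 gene IDs of the count table, and all 10 had enough counts to be tested among 11929 genes. The 4 TG libraries came from transgenic mice (genotype DT TG) whose Paneth cells express diphtheria toxin, and the 4 WT libraries came from wild type controls. The study lists this dataset as profiling of purified cells following depletion of (mature) Paneth cells. Whether the sorted TG and WT cells were the same kind of Paneth cell was not tested. The study's methods give C57BL/6J as the strain. The study describes its sorted samples as coming from individual mice, while the labels number the replicates without naming animals. The promoter that drives the toxin and the age of the mice are not given in the labels. In both groups the small intestine was brought to a single cell suspension and Paneth cells were collected by FACS before RNA isolation. Every library therefore came from dissociated and sorted cells, and the level of these genes before isolation was not analysed here.

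Immediate early genes are transcribed within minutes of a stimulus such as a growth factor, stretch or tissue dissociation, without the need for new protein. Fos and Jun proteins pair to form the transcription factor AP-1, while Egr1 and Atf3 are transcription factors of other families. Dusp1 encodes a phosphatase that switches off the MAP kinases that turn several of these genes on. Paneth cells sit at the base of the crypts of Lieberkühn and secrete antimicrobial peptides.

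The libraries held 13107397 to 16218434 counts and 15559 to 16943 genes with a count. Of the Paneth cell markers, Lyz1 had the most counts, with 2070921 to 2860957 per library, and the 28 alpha-defensin genes took 26.2 to 33.9% of all counts. The 10 immune markers summed to 12.4 to 19.3 TMM-scaled CPM in WT and 9.70 to 30.6 in TG. Most of this was Lyz2, with 133 to 454 counts per library, while the leukocyte marker Ptprc had 37 counts and Cd68 60 over all 8 libraries, and Adgre1 had 0. The 7 stromal and endothelial markers together reached at most 0.967 TMM-scaled CPM, and Kdr had 0 counts in all libraries. Y-linked genes had 897 to 1564 counts in replicates 3 and 4 of each group and 0 in replicates 1 and 2, a split that is balanced over the groups. WT 1 had the fewest genes with a count, the lowest TMM factor (0.845, against up to 1.10) and the highest alpha-defensin share.

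Between TG and WT, the 10 genes did not shift in 1 direction, and only Atf3 passed the test. None was called higher and 1 (10%) was called lower (edgeR quasi-likelihood test, adjusted p under 0.05), where 17.9% of all 11929 tested genes were called, 8.26% higher and 9.65% lower. At an unadjusted p below 0.05, edgeR marked 2 of them, Atf3 and Jund, and 33.1% of all genes. DESeq2 also called 1, Atf3. Fitted changes were above 0 for 6 genes and below 0 for 4, with a median of 0.04 against 0.009 over all tested genes. None of the 10 had WT and TG values that did not overlap, against 22% of all tested genes. In bulk samples, fewer cells that express a gene and less RNA per cell cannot be told apart.

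**Figure D1:**
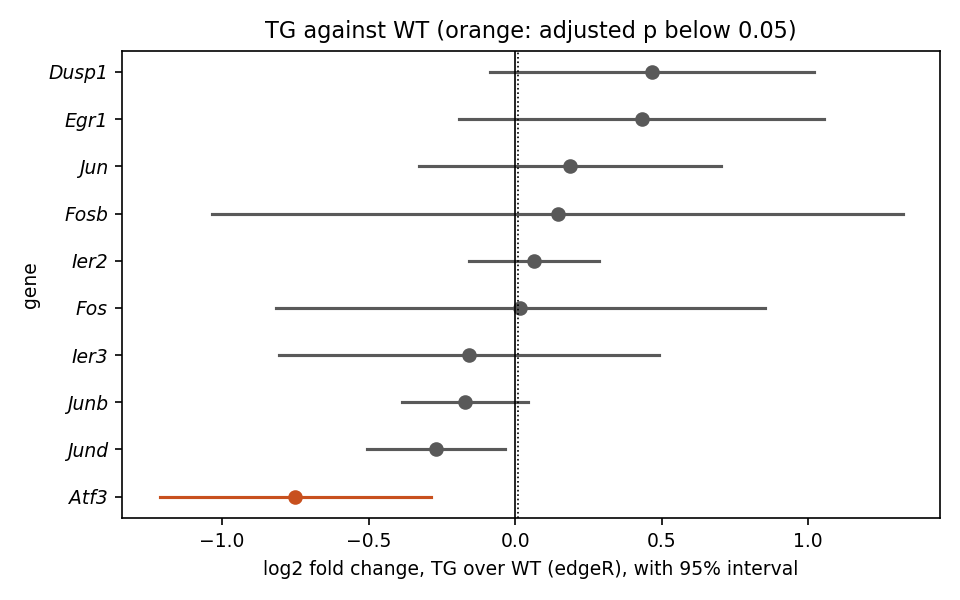
Log2 fold changes of TG over WT (horizontal axis) for the 10 genes with 95% intervals from the edgeR fit, the dotted line marking the median of all tested genes, 0.009. Only Atf3, in orange, passed the adjusted threshold, and 8 of the 10 intervals include 0.

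Per length of exon, the 10 genes covered a wide range. On this scale (counts per kilobase of merged exon, scaled to the same total in every library), Jund was highest at 96.9 ± 14.6 (SD, n = 8), which ranked it 148 among all genes. Ier2 followed at 44.7 ± 9.71, Jun at 40.5 ± 13.2, Fos at 35.8 ± 13.5, Junb at 25.4 ± 2.97 and Egr1 at 19.1 ± 6.39. The last 4 lay well below these, with Fosb at 3.00 ± 1.41, Dusp1 at 2.51 ± 0.959, Atf3 at 2.14 ± 0.857 and Ier3 at 1.83 ± 0.643, at ranks from 5631 to 7341. Only the steps from Jund to Ier2 and from Egr1 to Fosb separated the ranges of neighbours over the 8 libraries. The order from Ier2 to Jun, Fos, Junb and Egr1 held for each neighbouring pair in 6 to 8 of the 8 libraries, with overlapping ranges. The order of Fosb and Dusp1 and that of Dusp1 and Atf3 held in 5 libraries and that of Atf3 and Ier3 in 4, so these neighbours did not differ beyond their spread.

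**Figure D2:**
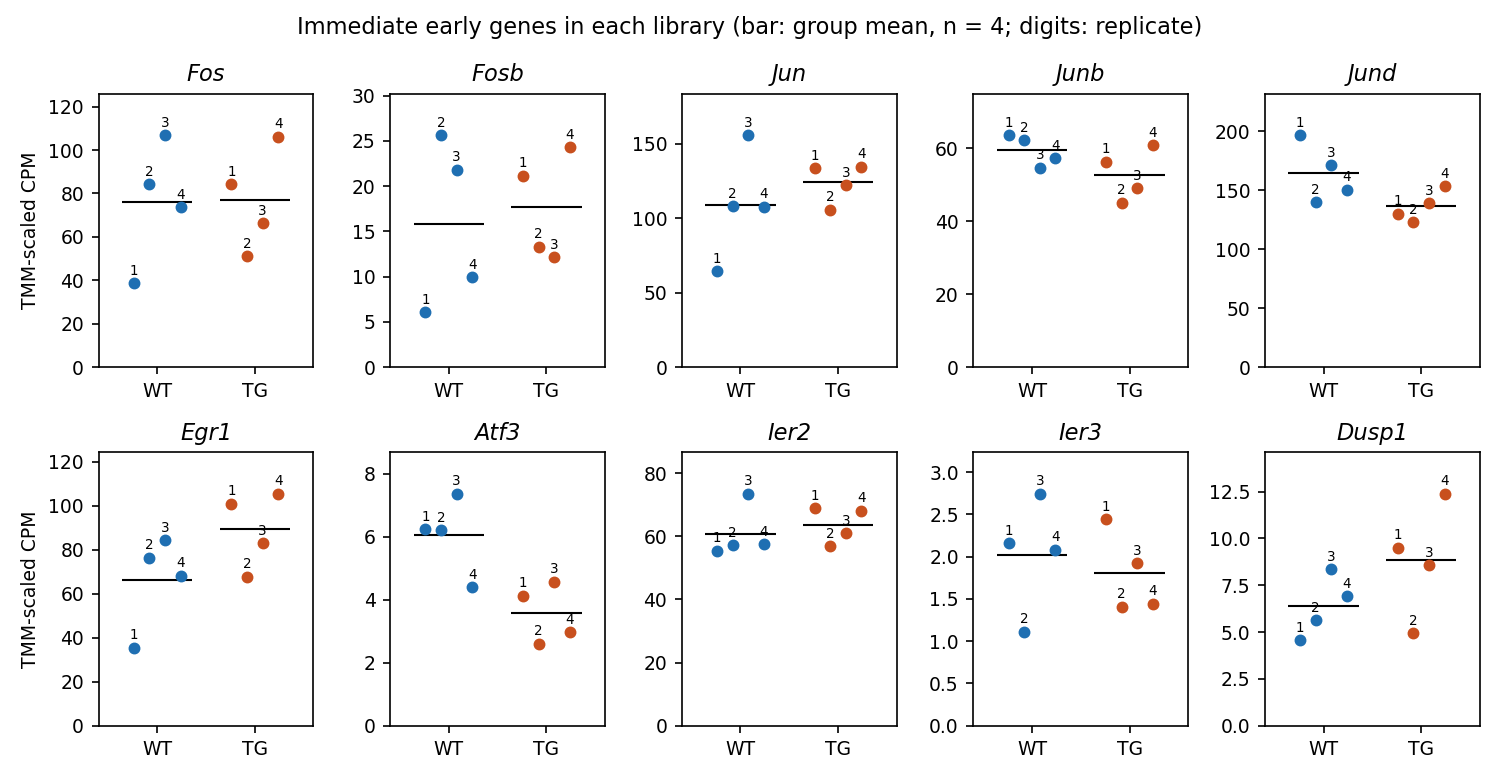
TMM-scaled CPM (vertical axes, linear from 0) of the 10 genes in the 4 WT and 4 TG libraries, with replicate numbers beside the points and a bar at each group mean. The WT and TG points overlap for every gene, and WT 1 is the lowest of the 8 points for 6 of them.

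In what follows, levels are TMM-scaled CPM, that is, counts relative to the library total after TMM scaling. The groups were compared on this scale, which does not compare 1 gene with another. Fos, the founding member of the Fos family, (chr12:85520658-85524047, plus strand, GRCm39) stood at 38.6, 84.4, 107 and 73.8 CPM in WT 1 to WT 4. In TG 1 to TG 4 it stood at 84.3, 51.1, 66.3 and 106 CPM. The highest WT and the highest TG library were thus nearly level, WT 1 lay below all others, and the groups overlapped throughout. The TG over WT log2 fold change was 0.02 ± 0.35 (SE), with a 95% interval from -0.82 to 0.85 and an adjusted p of 0.979 (edgeR quasi-likelihood test, Benjamini-Hochberg).

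Fosb, its close relative, also had its lowest level in WT 1. Its levels were 6.07, 25.6, 21.8 and 9.97 CPM in WT 1 to WT 4, against 21.1, 13.3, 12.2 and 24.3 CPM in TG 1 to TG 4. The 4 WT libraries alone covered a 4.22-fold range that enclosed all TG values. The log2 fold change of 0.14 ± 0.49 had an interval from -1.03 to 1.32 (edgeR adjusted p = 0.871), which held a change of 1 log2 unit in either direction. Both signs turned without WT 1, to -0.20 for Fos and -0.12 for Fosb.

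Fos and Fosb were also the only 2 of the 10 genes with an exact match to the CArG box. This DNA element is bound by serum response factor. The window searched ran from 500 bases before to 50 bases after the start of the GENCODE canonical transcript. Inexact matches and sites outside this window were not looked for, so such elements of Egr1 or the other genes may have been missed. Such a box stood in 2.92% of 21614 promoters searched in the same way on both strands. The matches are shown because these 2 genes had the widest spread between WT libraries. Whether the box has a part in that spread was not tested, and Egr1 and Jun, also lowest in WT 1, had no match. The CArG box is in capitals, on the strand of the gene (GRCm39).
Fos, chr12:85520345-85520374, plus strand, 303 bases before the start: cacaggatgtCCATATTAGGacatctgcgt
Fosb, chr7:19044223-19044252, minus strand, 266 bases before the start: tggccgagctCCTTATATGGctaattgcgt
A match is a description of letters and not a measured binding site.

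None of the 3 Jun family members passed the test, and their fitted changes had both signs. Jun, the main partner of Fos, was at 64.7, 108, 156 and 108 CPM in WT 1 to WT 4 and at 134, 106, 122 and 135 CPM in TG 1 to TG 4. The TG libraries lay close together, inside the range from WT 1 to WT 3. Its log2 fold change was 0.19 ± 0.23 (interval -0.33 to 0.70, edgeR adjusted p = 0.610) and fell to 0.001 without WT 1.

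Junb, which often opposes Jun within AP-1, was the steadiest of the 10 genes among WT libraries, at 63.6, 62.3, 54.7 and 57.4 CPM. TG 1 to TG 4 held 56.4, 45.1, 49.0 and 60.8 CPM. TG 2 and TG 3 lay below all WT libraries while TG 1 and TG 4 lay among them, and the log2 fold change was -0.17 ± 0.10 (interval -0.39 to 0.04, edgeR adjusted p = 0.249).

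Jund, the Jun family member that most resting cells keep at a steady level, was at 196, 140, 171 and 150 CPM in WT 1 to WT 4. The TG values were 130, 123, 139 and 153 CPM. TG 1 to TG 3 lay below all WT libraries, TG 4 did not. The log2 fold change of -0.27 ± 0.11 had an interval, not adjusted for the number of genes, from -0.51 to -0.04 and did not pass the test (edgeR adjusted p = 0.103). It passed without WT 2, at -0.34 with an adjusted p of 0.0426, and stood at -0.18 without WT 1.

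Egr1, a zinc finger transcription factor that growth factors and stress induce, was at 35.4, 76.3, 84.3 and 68.1 CPM in WT 1 to WT 4. In TG 1 to TG 4 it was at 101, 67.7, 83.0 and 105 CPM. TG 1 and TG 4 lay above all WT libraries and WT 1 below all TG libraries, with the others intermixed. The log2 fold change was 0.43 ± 0.27 (interval -0.19 to 1.06, edgeR adjusted p = 0.302). Without WT 1 it was 0.23 ± 0.14.

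Atf3, a stress-induced factor of the ATF/CREB family that can pair with Jun proteins, was the only 1 of the 10 genes that passed the test. Atf3 (chr1:190902493-190950241, minus strand, GRCm39) was at 6.23, 6.20, 7.36 and 4.39 CPM in WT 1 to WT 4, from 59 to 110 counts per library, and at 4.13, 2.60, 4.57 and 2.97 CPM in TG 1 to TG 4, from 37 to 81 counts. WT 4 fell between TG 1 and TG 3, and the other 3 WT libraries lay above all TG libraries. Atf3 fell in TG to 0.594 of its WT level (log2 fold change -0.75 ± 0.22, interval -1.21 to -0.29, edgeR adjusted p = 0.0286). The fold stayed below 0 under all 18 alternative settings (-0.90 to -0.62) but passed in 11 of them, with adjusted p-values from 0.00476 to 0.347. The call was lost without TG 1 (adjusted p = 0.0543), TG 2 (0.0931), TG 4 (0.0639) or WT 3 (0.0744), and with library sizes not scaled by TMM (0.130).

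Ier2, a small nuclear protein of the immediate early response, was at 55.5, 57.1, 73.5 and 57.5 CPM in WT 1 to WT 4 and at 68.8, 56.9, 60.9 and 68.1 CPM in TG 1 to TG 4. WT 3 stood apart from the other WT libraries, and its value was the highest of all 8. The log2 fold change was 0.06 ± 0.10 (interval -0.16 to 0.29, edgeR adjusted p = 0.703), and after Junb this was the narrowest interval of the 10.

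Ier3, a stress-responsive regulator of cell survival, had the fewest counts, 16 to 41 per library. It stood at 2.16, 1.11, 2.74 and 2.08 CPM in WT 1 to WT 4 and at 2.44, 1.41, 1.92 and 1.44 CPM in TG 1 to TG 4. The lowest and the highest library were both WT. The log2 fold change was -0.16 ± 0.30 (interval -0.81 to 0.49, edgeR adjusted p = 0.753).

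Dusp1, the MAP kinase phosphatase, was at 4.56, 5.64, 8.37 and 6.92 CPM in WT 1 to WT 4 and at 9.51, 4.93, 8.58 and 12.4 CPM in TG 1 to TG 4. All TG libraries but TG 2 lay above all WT libraries. The log2 fold change was 0.47 ± 0.25 (interval -0.09 to 1.02, edgeR adjusted p = 0.223), and it was 0.27 without TG 4 and 0.66 without TG 2, neither of which passed. The annotated span of Dusp1 overlaps Ergic1 on the other strand, with 35164 counts over the 8 libraries, and Junb overlaps Prdx2 with 8145. Whether the counting used strand is not given in the sources used here, so reads from such partners cannot be told apart.

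The cAMP response element TGACGTCA, bound by CREB and ATF factors, stood in the same window of 3 of the 10 genes and of 2.71% of all promoters. These sites are shown because Jund and Ier2 had the highest levels per length of the 10 genes and Dusp1 one of the lowest, with the element in capitals on the strand of the gene (GRCm39). The annotated span of the Dusp1 gene begins further upstream than this start.
Jund, chr8:71151374-71151403, plus strand, 214 bases before the start: ccccacccccaTGACGTCAacccacaatgc
Ier2, chr8:85389508-85389537, minus strand, 43 bases before the start: tggtgttgcagTGACGTCActctcagtata
Dusp1, chr17:26727571-26727600, minus strand, 96 bases before that start: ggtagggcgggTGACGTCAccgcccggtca
The AP-1 site itself (TGACTCA or TGAGTCA, each the reverse complement of the other) was found in none of the 10 windows and in 8.23% of all promoters, and nothing about the factor follows from that.

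Summed over the 10 genes, CPM from total counts, without TMM scaling, were 399, 576, 754 and 482 in WT 1 to WT 4 and 631, 511, 598 and 644 in TG 1 to TG 4. The group means were 553 ± 152 for WT and 596 ± 59.6 for TG (SD, n = 4), a difference smaller than the spread between WT libraries. After TMM scaling they were 566 ± 89.0 and 575 ± 85.1. The difference on total counts, TG minus WT, was 43.3 CPM with all libraries and -7.85 without WT 1, so its sign rested on that library.

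**Figure D3:**
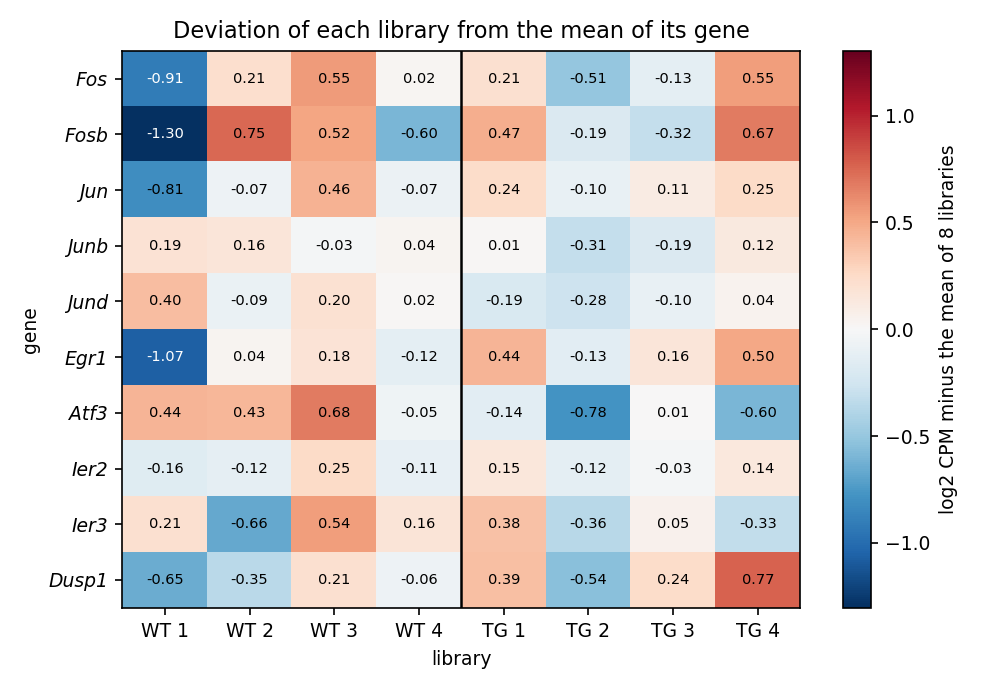
Deviation of log2 CPM from the mean of the 8 libraries (colour and printed values, log2 units) for the 10 genes (rows) in the WT and TG libraries (columns). In WT 1, Fos, Fosb, Jun, Egr1 and Dusp1 are all far below their means, at -1.30 for Fosb and -1.07 for Egr1. Junb and Jund are above theirs in WT 1 on these TMM-scaled values, where WT 1 has the lowest TMM factor (0.845).

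For all 10 genes, Atf3 included, the range over the WT libraries was wider than the difference between the group means. WT 1 was the lowest of the 4 WT libraries for 6 genes (Fos, Fosb, Jun, Egr1, Ier2 and Dusp1) and the highest for Junb and Jund. WT 3 was the highest WT library for 7. Among the TG libraries, TG 2 was the lowest for 9 genes, the exception being Fosb, and TG 4 was the highest for 7. The ratio of the highest to the lowest WT library was 2.77 for Fos, 4.22 for Fosb, 2.41 for Jun and 2.38 for Egr1, but 1.16 for Junb and 1.40 for Jund. Fos, Fosb, Jun and Egr1 thus had the same lowest WT library, and for Junb and Jund that library was the highest after TMM scaling. WT 1 had the lowest TMM factor (0.845), so its place for Junb and Jund depends on the scaling. In raw counts, WT 2 had more Junb (894 against 796 in WT 1) and WT 3 more Jund (2553 against 2458). Both came from smaller libraries than WT 1 (14113908 and 13601510 counts against 14821574).

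The standard deviation of log2 CPM over the WT libraries was 0.44 in the median of the 10 genes and 0.20 in the median of all tested genes. Over the TG libraries it was 0.32 against 0.15. Among all tested genes, the WT spread of Fosb lay at the 98.9th percentile, that of Fos at the 95.1st, Egr1 at the 93.3rd, Jun at the 91.8th and Junb at the 14.7th. Spread was larger in WT than in TG for 7 of the 10 genes, and for 65.9% of all tested genes. Fos and Egr1 had 443 counts or more in every library, and Fosb had 76 or more.

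**Figure D4:**
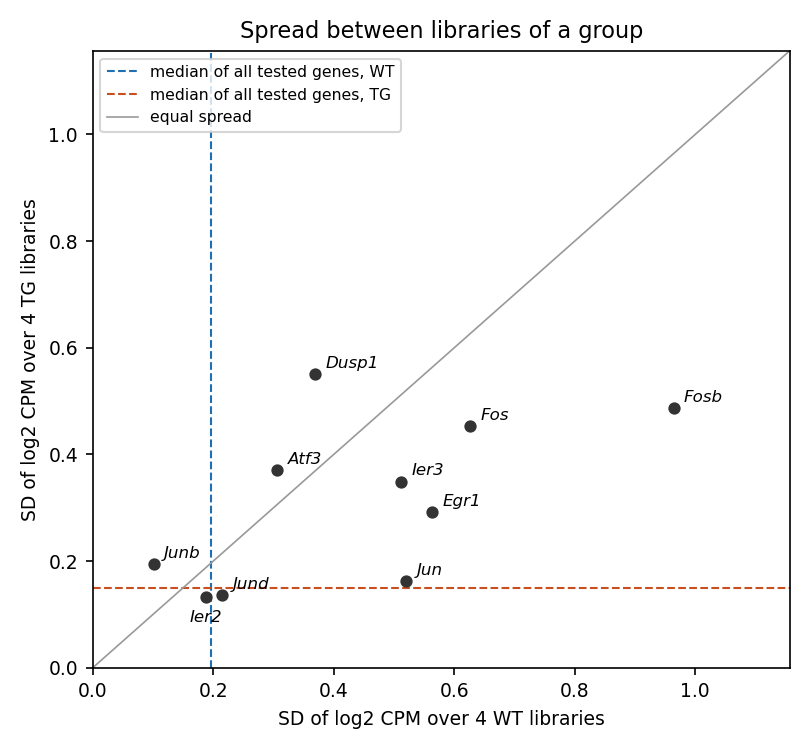
Standard deviation of log2 CPM over the 4 WT libraries (horizontal axis) and the 4 TG libraries (vertical axis) for the 10 genes, with dashed lines at the medians of all tested genes, 0.20 and 0.15. Fosb, Fos, Egr1 and Jun lie to the right of the line of equal spread, and Junb, Atf3 and Dusp1 lie above it.

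Other values of the same libraries are given as measured, and their part in these differences was not tested. WT 1 had the lowest mitochondrial share of counts, 0.566%, where the other WT libraries had 0.793 to 1.10% and the TG libraries 1.15 to 1.53%. The 11 heat shock genes summed to 1345, 1627, 2152 and 2796 TMM-scaled CPM in WT 1 to WT 4 and to 1301 to 1529 in TG. WT 1 was thus the lowest WT library for the heat shock sum as for Fos, while WT 4, the highest for the heat shock sum, was the highest library for none of the 10 genes. Of the enterocyte markers, 4 of 11 were higher in TG (8.26% of all tested genes), 10 of 11 were fitted above 0, and their median log2 fold change was 1.56. Their sum, most of it Anpep and Vil1, was 822 to 1052 TMM-scaled CPM in TG and 711 to 834 in WT. Of the Paneth markers, 3 of the 9 measured were lower in TG (9.65% of all tested genes). Of the 6 stem cell markers, Slc12a2 and Axin2 were higher and Smoc2 was lower in TG (50% called, against 17.9% of all tested genes).

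The TG effect was also compared between libraries without and with Y-linked counts. In a model with an interaction, none of the 10 genes passed the edgeR test of a difference between these effects, and 0 had an unadjusted p below 0.05, where 684 of all tested genes did and 3 passed after adjustment. Within replicates 1 and 2, Jun differed by 0.47 ± 0.26 and Egr1 by 0.59 ± 0.50. Within replicates 3 and 4, the values were -0.03 ± 0.16 and 0.31 ± 0.15. Atf3 was -0.88 ± 0.29 in the first pair and -0.62 ± 0.32 in the second, with edgeR adjusted p-values of 0.0783 and 0.347.

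Around these 10 genes, 56 other immediate early genes were listed, of which 43 were tested, 5 were called higher and 7 lower (27.9% called, against 17.9% of all tested genes, 8.26% higher and 9.65% lower). Their median log2 fold change was 0.05. Sgk1, a kinase induced by serum and glucocorticoids, had the highest fold change among the tested genes of this list, rising from 1.44, 1.95, 2.48 and 3.35 CPM in WT 1 to WT 4 to 4.25, 6.76, 4.46 and 7.22 CPM in TG 1 to TG 4 (log2 fold change 1.29 ± 0.26, edgeR adjusted p = 0.00542). Nr4a1, an orphan nuclear receptor, rose from 5.62 to 8.79 CPM in WT to 11.8 to 18.8 CPM in TG (0.85 ± 0.18, edgeR adjusted p = 0.00610). Neither gene had overlapping groups. Gadd45a, a growth arrest gene, the Krüppel-like factor Klf10 and Myc rose by 0.69, 0.61 and 0.32 on the log2 scale.

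In the other direction, Socs3, an inhibitor of cytokine signalling, was at 59.9, 58.8, 17.6 and 17.9 CPM in WT 1 to WT 4 and at 8.95, 6.90, 7.73 and 6.39 CPM in TG 1 to TG 4 (log2 fold change -2.35 ± 0.53, edgeR adjusted p = 0.0305). Every TG library lay below every WT library. The WT libraries formed 2 levels, the higher in WT 1 and 2, without Y-linked counts, and the lower in WT 3 and 4, with them. The TG effect on Socs3 differed between these kinds of library (edgeR interaction adjusted p = 0.0456), so 1 fold change does not describe both. The transcription factors Cebpd and Cebpb fell by 1.03 and 0.68, Gadd45g by 0.97 and the nuclear NF-kB regulator Nfkbiz by 0.78. Of these 10 named genes, Nr4a1 and Sgk1 lost their call in 1 of 18 alternatives each and the other 8 in 3 to 9. The count of 12 called fell to 5 without TG 2, 6 without TG 1 and 7 without WT 1. Left-out libraries that ended a call were any TG library or WT 1 for Socs3 (edgeR adjusted p = 0.0628 to 0.0923), TG 1, 2, 3 or WT 1 for Cebpd (0.0642 to 0.104), WT 1 for Gadd45g (0.0601), TG 2 or WT 1 for Nfkbiz (0.0682 and 0.0684) and TG 1 for Cebpb (0.0515). Among the genes that rose, they were any TG library, WT 3 or WT 4 for Myc (0.0517 to 0.132), TG 1, 2, 4 or WT 1, 2, 3 for Klf10 (0.0568 to 0.0841) and TG 2, 4 or WT 1, 2, 4 for Gadd45a (0.0568 to 0.0840).

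**Figure D5:**
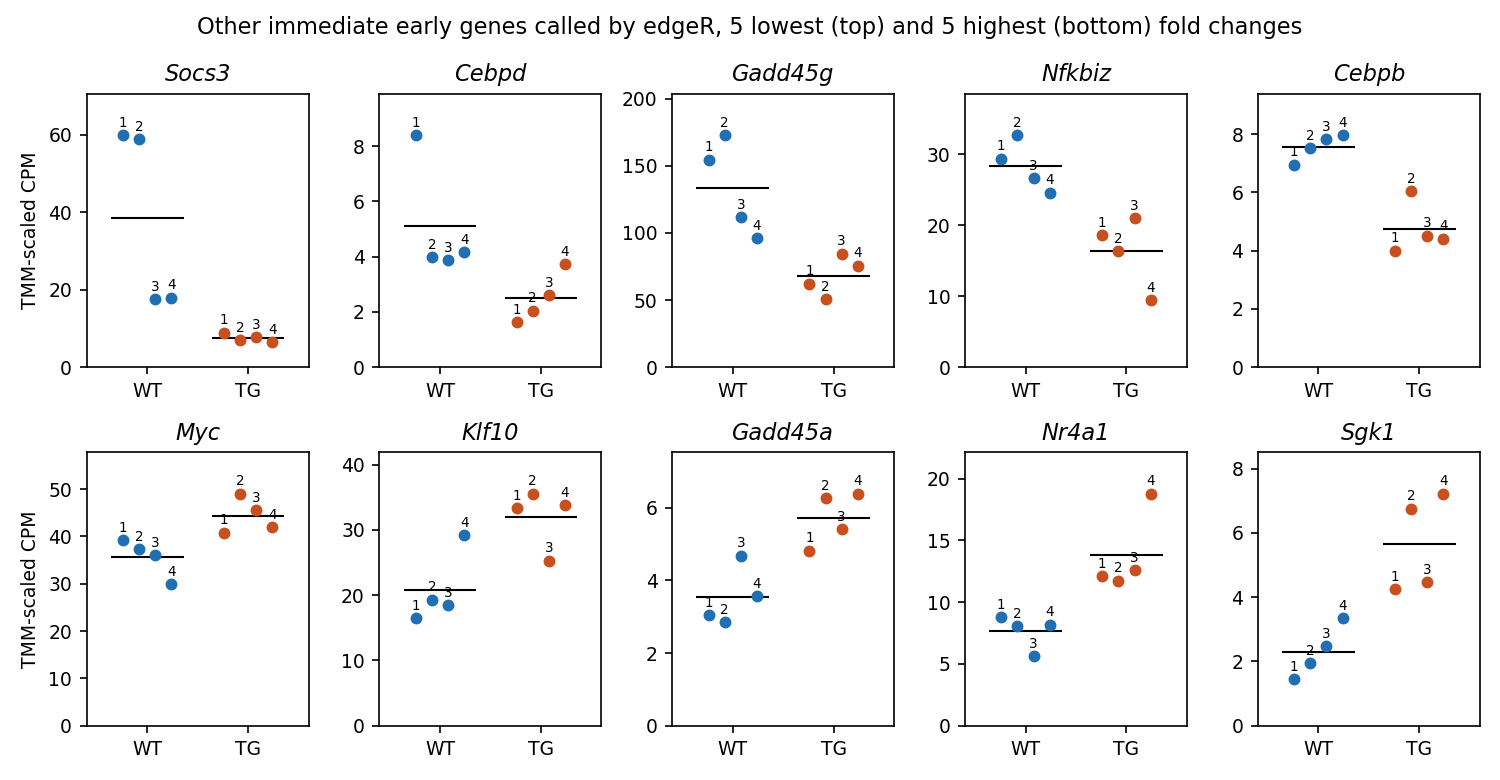
TMM-scaled CPM (vertical axes, linear from 0) in the 4 WT and 4 TG libraries of the 10 named other immediate early genes, with replicate numbers and a bar at each group mean. The upper row fell and the lower row rose in TG, and Socs3 shows WT 1 and 2 near 59 and WT 3 and 4 near 18 CPM.

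Of 24 kinases and factors that act before immediate early transcription, all 24 were tested, 1 was called higher and 3 lower (16.7% called, close to the 17.9% of all tested genes). The MAP kinase kinase Map2k1 fell from 52.7 to 61.1 CPM in WT to 39.2 to 44.6 CPM in TG (log2 fold change -0.46 ± 0.09, edgeR adjusted p = 0.00316). The p38 family kinase Mapk13 fell by 0.37 and the ribosomal S6 kinase Rps6ka1 by 0.32, while Mrtfb, a coactivator of serum response factor, rose by 0.38. Map2k1 passed whichever library was left out, whereas Mapk13, Rps6ka1 and Mrtfb lost their call without TG 1 (edgeR adjusted p = 0.0565, 0.0656 and 0.0850) or TG 2 (0.0526, 0.0622 and 0.0769), and Rps6ka1 also without TG 4 (0.0522). Of 15 other bZIP genes, 10 were tested and 2 were called (20%, also close to the 17.9% of all tested genes), with Maf higher by 2.31 ± 0.46 and Atf5 lower by 1.02 ± 0.22 on the log2 scale. Among the 9 heat shock genes tested, all were fitted below 0, as were 5814 of the 11929 genes tested, and 2 were called lower (22.2%, against 17.9% of all tested genes called), Hspa1b at -3.26 ± 0.89 and Dnaja1 at -0.73 ± 0.16. Hspa1b lost its call without any 1 of the TG libraries or WT 3 (edgeR adjusted p = 0.0729 to 0.122), and its log2 fold change was -2.35 without WT 4.

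The genes outside these lists whose profile over the 8 libraries was nearest to the mean profile of the 10 were Zfp862-ps, Igf2bp2, Lcmt1, Xpo4 and Lpin3. Their root mean square difference from it was 0.103 to 0.123 in log2 units, against a median of 0.301 over 8024 genes, and the same 5 came first with each group centred on its own mean. Zfp862-ps, for example, was at 9.27, 11.7, 13.7 and 11.8 CPM in WT 1 to WT 4 and at 12.4, 10.3, 10.8 and 12.3 CPM in TG 1 to TG 4, with WT 1 lowest and WT 3 highest as for Fos. The genes were picked for this likeness, so it is a description and no further result.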

How the data were processed

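The deposited file holds raw read counts per Ensembl gene for 8 libraries. Per the labels, Paneth cells were sorted by FACS and libraries were made with a stranded mRNA kit. The submitters' processing notes name FastQC 0.12.0, STAR 2.7.0a, DESeq2 and mm39. Which tool counted the reads, with which strand setting and annotation, is not given in the sources used here. Symbols came from GENCODE mouse release 39 (GRCm39), which matched 54749 of 55414 IDs.

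TG was compared with WT by edgeR 4.0.16 (R 4.3.3), with TMM factors (0.845 to 1.10), the default filter on low counts (minimum count 10), a robust quasi-likelihood fit on group alone and Benjamini-Hochberg adjustment over all 11929 tested genes, calls being made at 0.05. Standard errors and 95% intervals come from that fit. It was tested on simulated data. Log2 CPM used a prior count of 2. The precision of each value is limited by 4 libraries per group, and any duplicate libraries were looked for and not found.

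The 10 genes and the gene lists were chosen with earlier results of these data known. Named from the other lists were the called genes with the 5 highest and 5 lowest fold changes, from all genes in no list the 5 most like the mean profile. Alternatives were DESeq2 1.42.0, other scalings and filters, a replicate block, the split by Y-linked counts and leaving out each library. Deviations of same-numbered TG and WT libraries correlated at 0.076, 0.067, 0.286 and 0.231 for replicates 1 to 4. Only replicates 3 and 4 correlated best with their own number, so the numbers were not taken as pairs.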

Additional observations from a re-analysis of the deposited data

Results flagged for a closer look

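Among 58 groups of 4 libraries examined for the 10 genes, their summed CPM and the named genes of the lists, 5 held a library that stood apart from the other 3 of its group, where chance gives about 1 in 20 (2.9 groups). For each, the gap to the nearest library is given as a share of the range of the group. Ier2 was flagged in WT (0.890), with WT 3 at 73.5 CPM and the others at 55.5 to 57.5. Cebpd was flagged in WT (0.937), with WT 1 at 8.39 CPM and the others at 3.88 to 4.17. In TG, Nr4a1 (0.881) had TG 4 at 18.8 CPM against 11.8 to 12.6, Maf (0.831) had TG 4 at 6.31 against 2.31 to 2.99, and Mapk13 (0.852) had TG 3 at 120 against 107 to 109. The effect of TG on Socs3 differed between libraries without and with Y-linked counts (edgeR interaction adjusted p = 0.0456), in a test that called 3 genes in all.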

How the results depend on the processing

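Of the 10 genes, 1 was called in the fit reported, and 0 were called with total counts in place of TMM-scaled sizes, within the libraries with Y-linked counts and within those without them. With 1 library left out, 0 to 2 were called. Of the other immediate early genes, 12 were called, against 7 with total counts, 2 within the libraries with and 7 within those without Y-linked counts, 5 to 12 with 1 library left out, 17 by DESeq2 and 18 with no filter. Over all genes, 2136 were called, 985 higher and 1151 lower, against 1049 with total counts (787 higher, 262 lower), 217 and 1138 within the libraries with and without Y-linked counts, 1055 (without TG 2) to 2228 (without WT 2) with 1 library left out, 2422 by DESeq2 and 2655 with no filter. Fits within 1 kind of library use 2 against 2, so fewer samples enter them. The median log2 fold change over all tested genes was 0.009 as reported and 0.123 with total counts. The summed CPM of the 10 genes differed between groups by 43.3 CPM, by 9.08 after TMM scaling and by -7.85 to 110 with 1 library left out. Signs turned under at least 1 alternative for Fos, Fosb, Jun, Ier2 and Ier3, none of which was called in any, and not for Egr1, Atf3, Junb, Jund and Dusp1.

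With the replicate number as a block, 1 of the 10 genes (Atf3), 12 of the other immediate early genes and 2203 of all genes were called. Cebpd and Gadd45g lost their call under the block (edgeR adjusted p = 0.0504 and 0.0926). For replicates 3 and 4, each TG library correlated best with the same-numbered WT library (0.286 and 0.231). The same-numbered libraries correlated less than 0.1 for replicates 1 and 2, and TG 1 correlated best with WT 2 (0.235). The numbers are thus not shown to pair all libraries, and pairing of replicates 3 and 4 was not tested.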
